A study of Homo sapiens with 6 samples.

Results

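Genes whose current symbol begins with LINC followed by a number, the names given to long intergenic non-coding RNAs, were followed after knockdown of Matrin3 in HCT116, a widely used cell line from a human colorectal cancer. The members were chosen by symbol and by level. Their CPM, a gene's counts scaled to the library's total, had to average 1 or more over the 6 libraries, and CYTOR and NORAD, which once carried LINC names, were left out. This rule kept 143 of the 2264 LINC-named genes among 58884 gene IDs, while 920 LINC-named genes had any count at all. The rule used the mean level of both groups together, so the levels below are descriptions. In one group (siCTRL) the cells were transfected with a negative control siRNA, and in the other (siMatrin3) with a pool of siRNAs against Matrin3. RNA was taken after 48 h, and each group had 3 libraries from biological triplicates of this 1 line. The study's methods describe depletion of ribosomal RNA and a directional kit, whereas the sample labels name a stranded mRNA kit.

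Matrin3 is a nuclear matrix protein that binds RNA, mostly in the introns of nascent transcripts, and takes part in the choice of exons. Long intergenic non-coding RNAs are transcribed by RNA polymerase II outside protein-coding genes. Many are spliced and polyadenylated but stay in the nucleus, where the exosome and its adaptors degrade part of them, and most are far less abundant than mRNAs. In annotation release 44 of GENCODE, 135 of the 143 members were typed as long non-coding RNA and 8 as pseudogenes. The LINC name did not always mean an isolated gene: the span of 95 members overlapped that of another annotated gene (small RNA genes aside), 44 of them on the same strand, and 48 overlapped none.

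MATR3 itself stood at 363, 343 and 330.2 CPM in siCTRL and at 72.4, 67.9 and 71.4 CPM in siMatrin3, so that 20.4% of its level was left (log2 fold change -2.29 ± 0.06 SE, adjusted p = 7.58e-11). The libraries held 4556658 to 8400412 estimated counts each. Of the epithelial markers, KRT19 and EPCAM, a keratin and an adhesion protein of epithelia, rose (log2 fold change 0.23 ± 0.05, adjusted p = 0.0106, and 0.28 ± 0.07, adjusted p = 0.0183). The 7 epithelial markers summed to 1576 to 1723 CPM in siCTRL and 1798 to 1897 CPM in siMatrin3, of which VIL1, a marker of the gut brush border, was too low to test. Of the 6 tested, 2 rose (33.3%), beside 5.68% of all genes. With the replicate block 3 of the 6 rose (50%), beside 8.39% of all genes. The 6 blood markers summed to at most 1.23 CPM in any library, with CD3E and HBB at 0. The 7 fibroblast markers summed to 19.3 to 23.2 CPM, with COL1A2, COL3A1, DCN and LUM at 0. Most of this sum was COL1A1, at a mean of 18.9 CPM in each group (log2 fold change -0.01, adjusted p = 0.967). THY1 was at 1.87 CPM in siCTRL and 2.07 CPM in siMatrin3 (0.22, adjusted p = 0.790). The 5 neural markers summed to 42.3 to 52.4 CPM. Of the 2 tested, 1 fell (50%, beside 5.18% of all genes), MAP2, a microtubule-associated protein (log2 fold change -0.74 ± 0.22, adjusted p = 0.0464). The other, MBP, made up most of the sum, at 35.4 CPM in siCTRL and 38.8 CPM in siMatrin3 (0.13 ± 0.09, adjusted p = 0.412). Of the 6 fits that left out 1 library, KRT19 passed in 6, EPCAM in 3 and MAP2 in 2, and with effective lengths as an offset all of them missed the threshold (adjusted p from 0.105 to 0.153). The part of these shifts in the results below was not tested. In such bulk RNA, fewer cells that express a gene and less RNA per cell cannot be told apart.

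Promoter sequences are shown for the members that passed the test and had an entry in the RefSeq promoter table. These sequences surround the RefSeq start of each gene, and which start the cells used was not tested. They are on GRCh38.p14 and run 5′ to 3′ on the strand of the gene, from 250 bases before to 50 bases after the RefSeq start. Capitals mark CCAAT boxes, searched as CCAAT on both strands and so also read as ATTGG. The windows lie at chr12:113773634-113773933 on the minus strand for LINC01234, at chr14:21206851-21207150 on the minus strand for LINC00641 and at chr10:65571175-65571474 on the plus strand for LINC01515. That of LINC01515 lies wholly inside the GENCODE span of the gene, downstream of its first base.
LINC01234: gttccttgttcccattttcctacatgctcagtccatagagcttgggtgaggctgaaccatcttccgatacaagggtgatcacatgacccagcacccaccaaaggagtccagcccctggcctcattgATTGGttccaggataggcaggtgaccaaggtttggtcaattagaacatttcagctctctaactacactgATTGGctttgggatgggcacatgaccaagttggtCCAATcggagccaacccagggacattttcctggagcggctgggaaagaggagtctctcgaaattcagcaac
LINC00641: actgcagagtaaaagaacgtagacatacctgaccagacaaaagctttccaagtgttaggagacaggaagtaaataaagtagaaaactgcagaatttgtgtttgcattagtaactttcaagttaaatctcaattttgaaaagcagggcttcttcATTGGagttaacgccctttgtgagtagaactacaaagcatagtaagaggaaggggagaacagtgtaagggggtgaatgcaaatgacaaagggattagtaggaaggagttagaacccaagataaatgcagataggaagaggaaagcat
LINC01515: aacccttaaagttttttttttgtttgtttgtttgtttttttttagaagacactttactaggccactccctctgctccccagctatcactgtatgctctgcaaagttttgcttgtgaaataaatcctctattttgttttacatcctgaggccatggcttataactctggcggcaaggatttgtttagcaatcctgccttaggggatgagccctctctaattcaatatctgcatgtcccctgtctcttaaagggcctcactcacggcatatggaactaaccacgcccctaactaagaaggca
The window of LINC01234, the member that rose, held 3 CCAAT matches, that of LINC00641 held 1 and that of LINC01515 held 0. Of the 98 members with a RefSeq promoter, 44.9% held CCAAT, beside 34.6% of all 35116 promoters of this length. The other motifs searched on both strands were TATAAA (11.2% of member promoters and 11.5% of all), GGGCGG (48.98% and 44.95%) and CACGTG (6.12% and 7.26%). LINC01963, LINC03061, LINC02964 and LINC00470 had no entry. None of the 3 other motifs was found in the 3 windows. A match describes the letters of the window only. Median GC content was 58.3% in member promoters and 58.7% in all.

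The members were expressed at low levels. Their median was 3.28 CPM, the range ran from 1.002 to 66.5 CPM, and 27 members reached 10 CPM. Per length, in TPM, the scale on which RSEM divides reads by transcript length, LINC00273 was highest. It had 43.2, 50.4 and 44.3 TPM in siCTRL and 45.9, 54.4 and 43.9 TPM in siMatrin3, with overlapping groups. LINC00511, an RNA studied in breast and other carcinomas, followed with 37.2, 37.4 and 60.5 TPM in siCTRL and 26.8, 29.4 and 50.3 TPM in siMatrin3. In both groups its replicate 3 was far above the other two. Next in order came LINC01002, LINC02210, LINC02832, LINC01515, LINC01234, LINC02985, LINC03057 and LINC00963, at mean levels from 27.8 down to 12.6 TPM. Among the steps from one of these 10 genes to the next, only that from LINC02985 (16.9 TPM) to LINC03057 (13.2 TPM) was larger than the SD over the libraries of either gene. The order within the other pairs of consecutive genes is therefore not resolved, and genes farther apart in the order were not compared. Of the 50-base windows of LINC01002, 54.4% also occurred in transcripts of other genes, and LINC02210, typed as a pseudogene, lies within the LINC02210-CRHR1 readthrough gene, which leaves both levels uncertain.

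**Figure D1:**
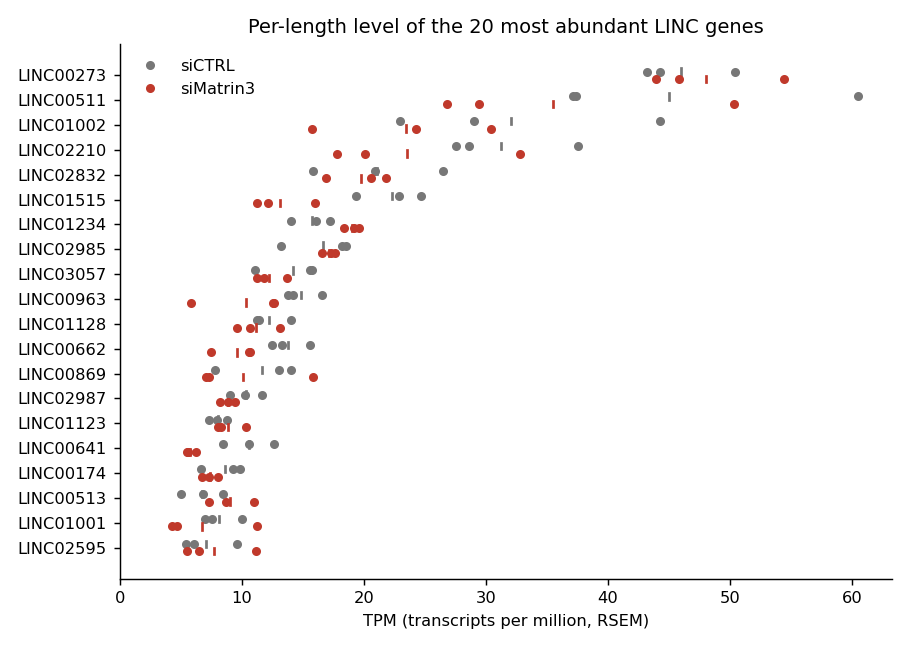
Level in TPM (linear axis) of the 20 members with the highest mean, with 1 point per library and a short bar at each group mean (grey siCTRL, red siMatrin3, 3 libraries each). LINC00273 (mean 47.0 TPM) and LINC00511 (40.3 TPM) led. The red points of LINC01515 and LINC00641 all lay left of the grey ones, as did those of some members that did not pass, such as LINC00662 and LINC00963.

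At the edge of the rule, LINC00652 (1.04 CPM), LINC02875 (1.01 CPM) and LINC02965 (1.002 CPM) were just inside, and LINC01347 (0.991 CPM), LINC02986 (0.989 CPM) and LINC02809 (0.986 CPM) were just outside. The filter on low counts kept 111 of the 143 members for testing. The other 32 had 1 to 19 reads in a library and at most 1.54 CPM. Fitted without the filter, none of the 32 passed, and their lowest adjusted p was 0.119.

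Of the 111 members tested, 1 rose and 6 fell in siMatrin3 and 104 did not pass an adjusted p of 0.05. LINC01234 rose, and LINC01963, LINC00641, LINC01515, LINC03061, LINC02964 and LINC00470 fell. The background over all 14334 genes tested was 5.68% higher and 5.18% lower, so the 5.41% of members that fell was near the share of all genes, and the 0.901% that rose was below it. Of the 1101 other long non-coding genes tested, 1.36% rose and 3.18% fell. At an unadjusted p under 0.05, 4 members were higher (3.60%) and 14 lower (12.6%), beside 12.8% and 12.3% of all genes. With the replicate block, 3 were higher (2.70%) and 7 lower (6.31%), beside 8.39% and 7.37% of all genes. In 4 tested members all siMatrin3 libraries lay above all siCTRL libraries and in 16 they all lay below, where the background was 15.0% and 14.7% of genes. The tests were less precise for members than for genes at large: the median SE of a log2 fold change was 0.30 for members and 0.12 for all genes.

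**Figure D2:**
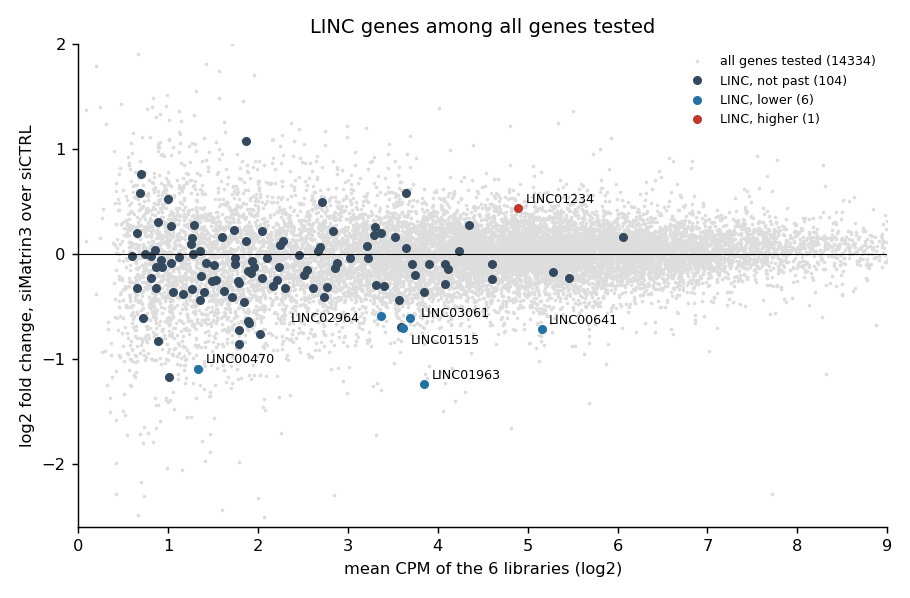
Fitted log2 fold change (siMatrin3 over siCTRL) against the log2 of the mean CPM over the 6 libraries, for all 14334 genes tested (light grey) and the 111 members tested (dark, with the 6 that fell in blue and the 1 that rose in red). Members crowd the low end of the level axis (genes beyond the axis limits are not drawn), and LINC01963 is the lowest of the blue points at -1.24.

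LINC01963 (ENSG00000260804) is a gene of 1 exon on chromosome 2 (hg38, 216217045 to 216220192, plus strand) that overlaps no other gene. Its libraries read 16.6, 20.7 and 22.9 CPM in siCTRL and 8.78, 9.05 and 7.80 CPM in siMatrin3. The lowest control was well above the highest knockdown library, so the groups did not overlap. The level fell by 57.4%, from 20.1 ± 3.19 to 8.54 ± 0.66 CPM (SD, n = 3 each), a log2 fold change of -1.24 ± 0.15 (edgeR adjusted p = 0.000299). This was the largest fall among the 7 members that passed, and it passed in each of the 15 other fits.

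LINC00641 (ENSG00000258441), studied in several carcinomas, lies on chromosome 14 (21200079 to 21206900, minus strand) and overlaps no other gene. It read 50.5, 38.6 and 44.9 CPM in siCTRL and 29.2, 24.4 and 26.4 CPM in siMatrin3, with every control above every knockdown library. Its log2 fold change was -0.72 ± 0.11 (adjusted p = 0.00129). On the log2(TPM + 1) scale with limma it did not pass (adjusted p = 0.0739).

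LINC01234 (ENSG00000249550), studied as a growth-promoting RNA in gastric and colon cancer, lies on chromosome 12 (113583886 to 113773726, minus strand) and overlaps no other gene. It was the member that rose, from 27.0, 26.6 and 22.9 CPM in siCTRL to 33.5, 35.7 and 34.5 CPM in siMatrin3. The knockdown libraries were close to each other and all above the controls. The log2 fold change was 0.44 ± 0.09 (adjusted p = 0.0104). It did not pass without siCTRL replicate 3 (0.37, adjusted p = 0.0552), with effective lengths as an offset (0.38, adjusted p = 0.173) or with limma on log2(TPM + 1) (0.26, adjusted p = 0.276).

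LINC01515 (ENSG00000228065) spans chromosome 10 from 65570338 to 65880289 on the plus strand and overlaps no other gene. It read 16.4, 13.4 and 16.0 CPM in siCTRL and 11.1, 8.18 and 8.27 CPM in siMatrin3, and its groups did not overlap. Its log2 fold change was -0.71 ± 0.17 (adjusted p = 0.0163). The call was lost without siCTRL replicate 1 (adjusted p = 0.0560) or 3 (0.0737) and without siMatrin3 replicate 2 (0.0506) or 3 (0.0667), and with effective lengths as an offset (0.133) or limma on log2(TPM + 1) (0.0605).

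LINC03061 (ENSG00000275216) lies on chromosome 13 (109269634 to 109278512, plus strand) and overlaps no other gene. It read 12.7, 17.9 and 15.9 CPM in siCTRL and 9.47, 11.3 and 10.1 CPM in siMatrin3. The lowest control stood just above the highest knockdown library, and the log2 fold change was -0.62 ± 0.16 (adjusted p = 0.0250). The call was lost without siCTRL replicate 2 (0.119) or 3 (0.0854) and without siMatrin3 replicate 1 (0.0911) or 3 (0.0726), and with effective lengths as an offset (0.119) or limma on log2(TPM + 1) (0.153), all adjusted p.

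LINC02964 (ENSG00000286122) spans chromosome 8 from 125648327 to 126008930 on the plus strand, and LINC00861 and unnamed genes overlap it on the opposite strand. It read 13.8, 12.5 and 10.9 CPM in siCTRL and 7.96, 7.66 and 8.89 CPM in siMatrin3, without overlap. Its log2 fold change was -0.59 ± 0.16 (adjusted p = 0.0336). It did not pass with DESeq2 (adjusted p = 0.0568), effective lengths as an offset (0.293), limma on log2(TPM + 1) (0.210) or without any 1 of the 6 libraries (adjusted p from 0.0508 to 0.103).

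LINC00470 (ENSG00000132204), an RNA studied in glioblastoma, spans chromosome 18 from 1254383 to 1408344 on the minus strand and overlaps unnamed genes on both strands. With 9 to 27 reads a library it was the least covered of the 7. It read 3.24, 3.17 and 3.87 CPM in siCTRL and 1.78, 1.57 and 1.40 CPM in siMatrin3, a non-overlapping fall with a log2 fold change of -1.09 ± 0.32 (adjusted p = 0.0447). Without any 1 library its adjusted p ranged from 0.0929 to 0.176. It also did not pass with a filter of CPM 1 (0.0573), without a filter (0.0940), with effective lengths as an offset (-0.76, adjusted p = 0.359) or with limma on log2(TPM + 1) (-0.58, adjusted p = 0.194), and DESeq2 gave it no adjusted p. The exact two-sided permutation test on log2(CPM + 1) gave p = 0.1 for each of the 7 genes, the smallest that 3 against 3 libraries allow.

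**Figure D3:**
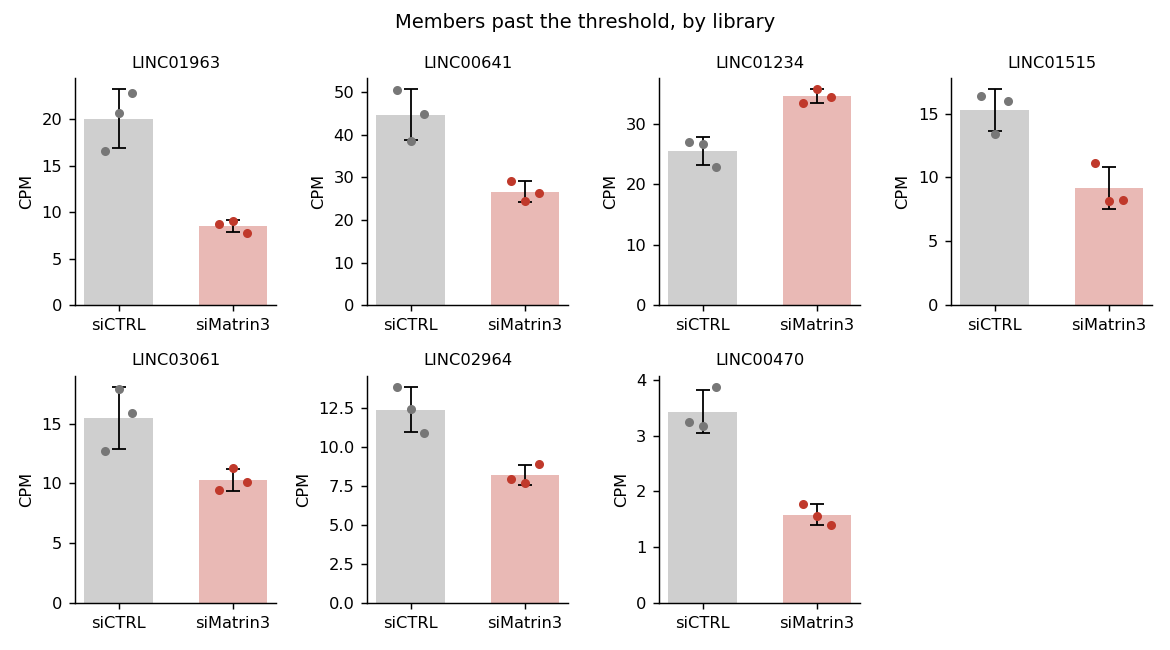
CPM in each library (points) with group mean (bar, from 0) and SD (error bar, n = 3) for the 7 members past the threshold, each on its own linear axis. In each of the 7 panels the points of siCTRL (grey) and siMatrin3 (red) do not overlap, from LINC01963 (20.1 and 8.54 CPM) to LINC00470 (3.43 and 1.58 CPM).

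Further members had fitted changes as large without passing. LINC01943 read 2.16, 3.06 and 3.17 CPM in siCTRL and 0.686, 1.39 and 1.72 CPM in siMatrin3 (log2 fold change -1.17 ± 0.40, adjusted p = 0.0773). It overlaps CYTOR on the opposite strand and shares 39.9% of its windows with other transcripts, so its reads may be split by estimate. LINC01270 read 3.88, 1.88 and 1.58 CPM in siCTRL and 4.80, 4.53 and 5.61 CPM in siMatrin3 (1.08 ± 0.34, adjusted p = 0.0607, and 0.0487 with the replicate block). It overlaps LINC01271 and shares 27.7% of its windows with it. LINC00460, studied in colorectal cancer (-0.86 ± 0.32, adjusted p = 0.107), LINC02323 (-0.83 ± 0.46, adjusted p = 0.295) and LINC00342 (-0.77 ± 0.30, adjusted p = 0.129) complete the 5 largest log2 fold changes below the threshold.

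The other 2 members that did not pass in the main fit but did with the replicate block are named because they complete that count, after their values were seen. LINC00861 lies opposite to LINC02964 on chromosome 8 and read 20.3, 10.7 and 14.4 CPM in siCTRL and 9.47, 8.36 and 9.20 CPM in siMatrin3. Its replicate 1 was the highest control, the groups did not overlap, and the log2 fold change was -0.70 ± 0.21 (adjusted p = 0.0505, with the block 0.0103). It also passed without the count filter (0.00373), with DESeq2 (0.0209), with upper quartile scaling (0.0493), without mitochondrial and small RNA genes (0.0479) and without siCTRL replicate 2 (0.0140), all adjusted p. LINC00513 overlaps LINC-PINT, a tumour-suppressive non-coding RNA gene, on the opposite strand. It read 12.9, 7.88 and 10.2 CPM in siCTRL and 17.8, 12.2 and 14.7 CPM in siMatrin3, with overlapping groups but replicate 1 highest in both (0.58 ± 0.20, adjusted p = 0.0773, with the block 0.0186), and it also passed without the count filter (0.0114) or without siCTRL replicate 1 (0.0451).

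Across the 111 members tested, log2 fold changes had a median of -0.13, beside -0.00 for all genes, 0.00 for 12177 protein-coding genes, -0.05 for 279 antisense-named genes and -0.08 for 822 other long non-coding genes. Of the members, 77 (69.4%) lay below 0, as did 50.1% of all genes and 58.4% of the 1101 other non-coding genes, antisense-named ones included. The 25th and 75th percentiles of the members lay at -0.32 and 0.06. Members that overlap no other gene had a median of -0.07 over 35 genes. No test was made of these medians, and the members that passed the filter are not all members. The members tested had a median level of 3.87 CPM, beside 22.3 CPM for all genes and 3.03 CPM for the 1101 other non-coding genes. Log2 fold changes had Spearman's rho of 0.14 with mean CPM over all genes tested and -0.04 over the members. The part of level in these differences was not tested.

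**Figure D4:**
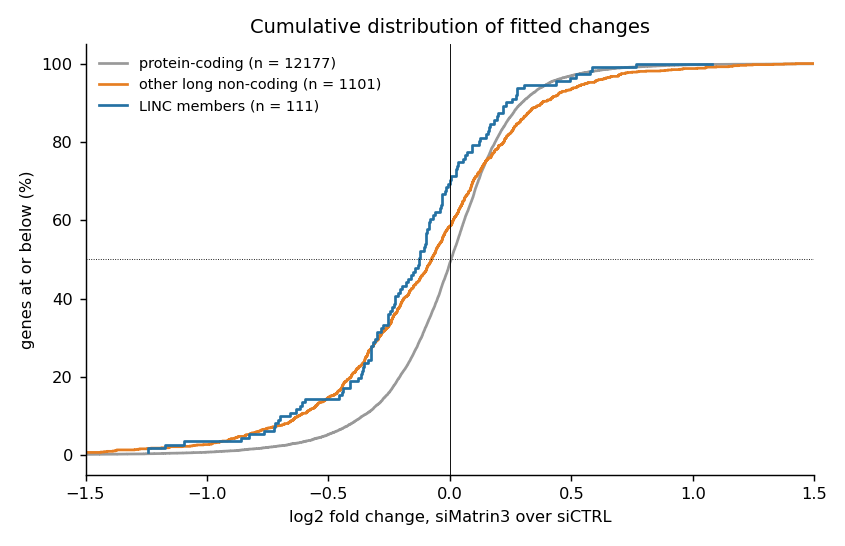
Cumulative share of genes (%) at or below each log2 fold change for members (blue, n = 111), other long non-coding genes (orange, n = 1101) and protein-coding genes (grey, n = 12177). The blue curve crosses 50% at -0.13, left of the orange (-0.07) and grey (0.00) curves.

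Summed over all 143 members, their share of a library's estimated counts in siCTRL replicates 1 to 3 was 0.101%, 0.0897% and 0.101%, and that in siMatrin3 was 0.0858%, 0.0808% and 0.0834%. Each knockdown library lay below each control. Without the 7 members that passed, the shares were 0.0871%, 0.0763% and 0.0864% in siCTRL and 0.0758%, 0.0714% and 0.0740% in siMatrin3, so that the lowest control and the highest knockdown library nearly met. With library totals scaled by TMM, a choice made after seeing the data, all members gave 0.0880% to 0.0990% in siCTRL and 0.0841% to 0.0868% in siMatrin3, still apart. Without the 7 that passed, the TMM-scaled shares were 0.0748% to 0.0851% and 0.0743% to 0.0767%, and the groups overlapped.

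Features of the genes that the rule did not use were described next. The median member spanned 12318 bases, with 5 exons, and 26 members had 1 exon. The 111 members tested had a median span of 12286 bases. Of the 55 with a span above it, 45 lay below 0 (median log2 fold change -0.17), and of the other 56, 32 did (median -0.09). Over the 111 members the log2 fold change had Spearman's rho of -0.23 with span and 0.22 with GC content of the longest transcript, and over the 14273 annotated genes tested of -0.16 and 0.21, all from the same libraries. Sharing of sequence was seen in 29 members with more than 20% of their 50-base windows also in transcripts of other genes, and in 11 of these it was more than 50%. Of the 23 tested members in this group 0 passed in edgeR, 2 were higher and 2 lower at an unadjusted p under 0.05 (8.70% each), and 0 passed in DESeq2. Over all genes, 5.68% and 5.18% passed in edgeR and 12.8% and 12.3% were under the unadjusted p. With the replicate block, 1 of the 23 was higher (4.35%) and 0 were lower, beside 8.39% and 7.37% of all genes.

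A small RNA gene on the same strand lay inside the span of 13 members. The 11 tested all had log2 fold changes below 0, from -1.09 to -0.01 with a median of -0.20, and 2 of them fell: LINC02964, which holds RNU6-442P, and LINC00470, which holds RN7SKP72. Among all members tested 69.4% lay below 0, and among all genes 50.1% did and 5.18% fell. Neither of the 2 calls was made by DESeq2, and each was lost without any 1 library. Most of the small genes are copies of U1, U6 or other spliceosomal RNAs, such as RNVU1-21 in LINC01138, and 1 member, LINC00888, holds the snoRNA genes SNORA63D and SNORA63E (log2 fold change -0.18).

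The nearest protein-coding gene was taken for each member, to see whether it moved too. It lay within 10 kb of 62 members and overlapped 19, with a median distance of 16624 bases. Of the 98 distinct neighbours tested, 9 rose (9.18%) and 4 fell (4.08%), beside 5.68% and 5.18% of all genes, and with the replicate block 12 rose and 13 fell (12.2% and 13.3%), beside 8.39% and 7.37% of all genes. XRCC5, which encodes the Ku80 protein of DNA end joining, lies 10742 bases from LINC01963 and rose from 461 ± 25.04 to 573 ± 32.1 CPM (SD, n = 3 each), a log2 fold change of 0.31 ± 0.06 (edgeR adjusted p = 0.00434), while LINC01963 fell. HNRNPC, a protein that binds uridine runs in introns, lies 2236 bases from LINC00641 and rose from 585 ± 20.9 to 667 ± 20.04 CPM (0.19 ± 0.05, edgeR adjusted p = 0.0302). The XRCC5 call was lost with effective lengths as an offset (0.15, adjusted p = 0.350) and with limma on log2(TPM + 1) (0.04, adjusted p = 0.823), and the HNRNPC call likewise (0.20, adjusted p = 0.125, and 0.10, adjusted p = 0.402). The HNRNPC call was also lost in 5 of the 6 fits without 1 library, all but the one without siCTRL replicate 2 (adjusted p up to 0.123). RBM19, a nucleolar RNA-binding protein gene 43012 bases from LINC01234, had a log2 fold change of 0.08 (adjusted p = 0.650), and TRIB1, a pseudokinase gene 209924 bases from LINC02964, one of 0.11 (adjusted p = 0.393). CTNNA3 near LINC01515, MYO16 near LINC03061 and ADCYAP1 near LINC00470 were too low to test.

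Some members and neighbours lay on the same side of 0, and others, such as LINC01963 with XRCC5 and LINC00641 with HNRNPC, on opposite sides. The pairs below are examples on the same side and were named after their values were seen. LRATD2, 259655 bases from LINC00861, fell (-0.87, adjusted p = 0.000159), EFNB2, an ephrin gene 105430 bases from LINC00460, fell (-0.58, adjusted p = 0.00303), and ANKRD36C, 1916 bases from LINC00342, fell (-0.52, adjusted p = 0.00421). MYC, the nearest coding gene of LINC02912 at 203608 bases, rose (0.51, adjusted p = 0.000145), where LINC02912 itself was at 0.22 (adjusted p = 0.587). Over the 81 pairs with both genes tested, the log2 fold changes had Spearman's rho of 0.32 and Pearson's r of 0.27, and over the 55 pairs within 50 kb 0.25 and 0.15. Both values of a pair come from the same libraries, and a neighbour can serve several members.

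**Figure D5:**
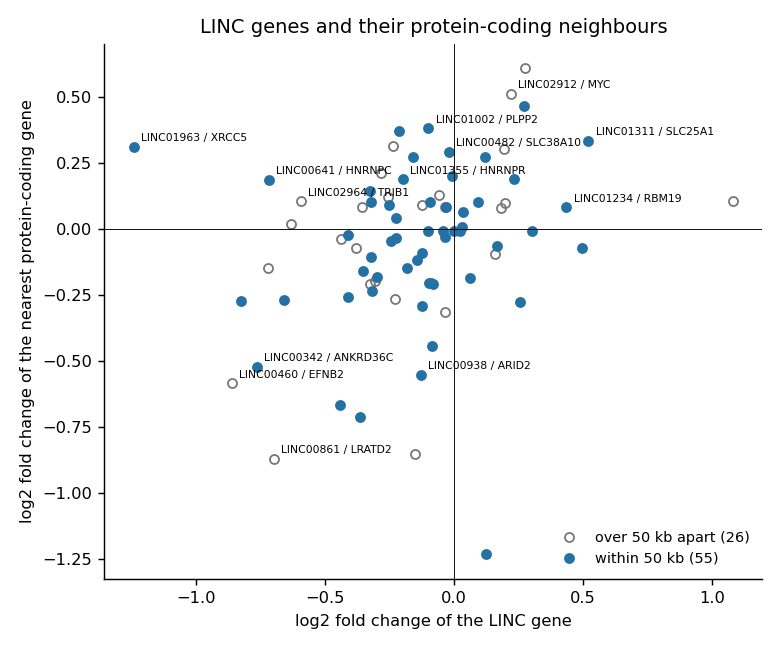
Log2 fold change of the nearest protein-coding gene against that of the LINC gene for the 81 pairs with both tested, filled where the genes lie within 50 kb (55) and open where they lie farther apart (26). LINC01963 with XRCC5 and LINC00641 with HNRNPC stand upper left, and LINC00861 with LRATD2 lower left.

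Of 41 LINC genes listed for their study in colorectal and other carcinoma cells, 19 were members and 16 were tested, of which 1 rose (LINC01234) and 2 fell (LINC01963 and LINC00641). Their median log2 fold change was -0.27, beside -0.13 for all members tested, -0.08 for the 822 other long non-coding genes and -0.00 for all genes, and 13 of 16 (81.2%) lay below 0, beside 69.4% of members and 50.1% of all genes. The shares called, 6.25% and 12.5%, stand beside 5.68% and 5.18% of all genes. This list was chosen with earlier results of these data known, so its median and shares are descriptions only. LINC00511, the most covered, read 36.0, 44.3 and 61.8 CPM in siCTRL and 29.4, 38.3 and 54.9 CPM in siMatrin3. Within each replicate number the knockdown library was lower, but the spread between numbers was larger than that difference (-0.23 ± 0.20, adjusted p = 0.537). With the replicate block LINC00511 was at -0.22 (adjusted p = 0.0677), still not past the threshold. LINC00963, studied in prostate cancer, was at -0.28 ± 0.17 (adjusted p = 0.337), LINC00662 at -0.36 ± 0.17 (0.196), LINC01128 at -0.24 ± 0.10 (0.159) and LINC00467 at -0.03 ± 0.18 (0.934). The others named in the list and tested, LINC00265, LINC00857, LINC01315, LINC01410, LINC00339 and LINC00847, ranged from -0.41 to 0.19 with adjusted p from 0.429 to 0.913. LINC00665, LINC00926 and LINC00973 were members but too low to test, at 1.32, 1.31 and 1.37 CPM.

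The proteins that end or degrade such transcripts were looked at as a group. Of 31 genes of nuclear RNA surveillance (the exosome, its adaptors, tailing enzymes and XRN2), 0 passed in edgeR, beside 5.68% higher and 5.18% lower of all genes. In DESeq2 0 passed, beside 6.35% and 4.74% of all genes. At an unadjusted p under 0.05 there was 1 higher and 1 lower (3.23% each, beside 12.8% and 12.3% of all genes). The lowest p-values belonged to the genes of the exosome core EXOSC9 (-0.17 ± 0.07, adjusted p = 0.147), EXOSC5 (0.29 ± 0.13, 0.184) and EXOSC2 (0.17 ± 0.08, 0.217) and to the cap-binding gene NCBP2 (0.14 ± 0.07, 0.220). The median over the list was 0.06. Of 31 genes of the Integrator complex and of transcription termination, 2 rose (6.45%) and 3 fell (9.68%), beside 5.68% and 5.18% of all genes. With the replicate block 5 rose (16.1%) and 3 fell (9.68%), beside 8.39% and 7.37% of all genes.

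WDR82, a subunit of complexes that restrict non-coding transcription, had 192 ± 6.18 CPM in siCTRL and fell to 137 ± 11.6 CPM (-0.48 ± 0.07 on the log2 scale, adjusted p = 0.000614). CPSF4, a zinc finger subunit of the cleavage and polyadenylation factor, fell from 43.4 ± 3.18 to 30.5 ± 1.10 CPM (-0.50 ± 0.09, adjusted p = 0.00299). Both kept an adjusted p under 0.05 without any 1 library, and with effective lengths as an offset CPSF4 did not pass (adjusted p = 0.132). INTS8 of the Integrator fell (-0.26 ± 0.07, adjusted p = 0.0205, up to 0.0866 without 1 library), and the cleavage factor genes CSTF1 (0.30 ± 0.08, adjusted p = 0.0238, up to 0.0970) and CPSF1 (0.27 ± 0.07, adjusted p = 0.0271, up to 0.130) rose. INTS8 was lost without siCTRL replicate 1 or 2 or siMatrin3 replicate 3, CSTF1 without any library but siMatrin3 replicate 2, and CPSF1 without siCTRL replicate 1 or 3 or siMatrin3 replicate 2 or 3. With effective lengths as an offset CPSF1 was at 0.13 (adjusted p = 0.695), INTS8 at -0.21 (0.318) and CSTF1 at 0.26 (0.195). With limma on log2(TPM + 1) WDR82 passed (adjusted p = 0.0247). CPSF4 (0.0611), INTS8 (0.164), CSTF1 (0.402) and CPSF1 (0.914) did not pass in that limma fit.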

How the data were processed

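Total RNA of HCT116 cells was measured in 6 libraries, 3 per group, 48 h after transfection. Per the labels, the authors used cutadapt, TopHat and RSEM on hg19. Neither the annotation release nor the use of strand in counting is stated in these sources. The deposited tables hold RSEM expected counts (estimated reads per gene, not normalized), TPM scaled by the authors within each library, and effective lengths in bases. FPKM was not used. Levels between genes were compared as TPM only.

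Positions, gene types and neighbours come from GENCODE release 44 on hg38, matched by gene ID, because the tables hold no coordinates. A gene symbol was found by ID for 58472 of the 58884 IDs. Of the members, 140 have a current RefSeq symbol. The member rule used CPM on plain library sums, and all printed CPM values per library are scaled by TMM. The members and the gene lists were chosen with earlier results of these data known. The list of genes studied in carcinoma cells was restricted to those that still carry a LINC symbol.

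Expected counts were rounded, filtered by edgeR's filterByExpr (minimum count 10, minimum total 15; 14334 genes), scaled by TMM and compared in edgeR (version 4.0.16, under R 4.3.3) with the two-sided quasi-likelihood test and Benjamini-Hochberg adjustment over all genes at 0.05. All adjusted p-values are from this test unless another is named. The printed SE is the size of the log2 fold change over the root of its F statistic. The scripts were tested on simulated data. Named genes were MATR3, members past the threshold, the 10 highest by TPM, the 5 largest changes not past it, the edge of the rule, the carcinoma list, the neighbours of members past the threshold, and the 4 lowest p of each protein list. CPSF1, KRT19, EPCAM, MAP2, COL1A1, THY1, MBP, other neighbours, the members added by the block and examples of members with small RNA genes were named after their values were seen. MPP6 was dropped from the surveillance list, since that name now leads to PALS2. Total counts ranged from 4556658 to 8400412 per library, and the biological coefficient of variation was 6.44%. Within groups, every pair of libraries differed by more than sampling noise (chi-square of 2.68 to 4.42 per degree of freedom).

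Samples with the same replicate number, which the labels give, deviated together (correlations 0.127, 0.122 and 0.152), so a fit with the replicate block is printed beside a count where it changes it. Alternatives were other scalings, filters, DESeq2 1.42.0, limma 3.58.1 on log2(TPM + 1), effective lengths as an offset, leaving out mitochondrial and small RNA genes, other member rules, a threshold of 0.01 and leaving out each library.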

Additional observations from a re-analysis of the deposited data

How the results depend on the processing

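The counts of 1 member higher and 6 lower moved with the settings. With the replicate block 3 were higher and 7 lower, and 2259 genes passed. Without the count filter 3 were higher. With RSEM effective lengths as an offset 0 were higher, 2 lower and 204 genes passed, and with limma on log2(TPM + 1) 0, 1 and 149, with a median of -0.18 for the members. At an adjusted p of 0.01 there were 0 higher, 2 lower and 589 genes in all. Members that overlap no other gene had a median of -0.069. Leaving out 1 library gave 0 to 3 higher, 2 to 6 lower, 707 to 1256 genes in all, and medians from -0.20 to -0.091. In that range, 0 were higher without siCTRL replicate 3 and 3 without siCTRL replicate 1, and 2 or 3 were lower without any library but siCTRL replicate 2, with which left out there were 6. Those 6 are not the same as in the main fit: LINC03061 (adjusted p = 0.119), LINC02964 (0.0883) and LINC00470 (0.0929) did not pass there. The cause of these shifts was not tested. RLE and upper quartile scaling, a filter of CPM 1, other mean CPM limits, leaving out mitochondrial and small RNA genes and DESeq2 gave 1 higher and 5 to 7 lower. The difference in summed share of counts (siMatrin3 minus siCTRL) was -0.0139 percentage points, and -0.00895 with TMM-scaled totals, an alternative chosen after seeing the data. LINC01963 passed in 15 of 15 other fits, LINC00641 in 14, LINC01234 in 12, LINC01515 and LINC03061 in 9, LINC02964 in 6 and LINC00470 in 4 of 14 that gave an adjusted p. The direction of these 7 was the same in all of them.

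Of the 111 members tested, a median SE of 0.30 means that changes of the size seen in most could not be told from 0 at this depth. RSEM splits reads of overlapping genes and near copies by estimate, and the p-values measure the spread between cultures of 1 cell line.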
